A study of Mus musculus with 4 samples.

Results

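Cholesterol synthesis genes were examined in lineage-negative bone marrow of mice lacking Mtg16 and of wild-type mice. The genes are 8 enzymes of the route to cholesterol (Hmgcs1, Mvk, Idi1, Fdps, Fdft1, Sqle, Lss and Cyp51), chosen by name, with 1 probe per gene, the probe of highest mean signal over the 4 arrays. A probe that carries a single gene symbol was present for 5 of the 8, namely Hmgcs1, Idi1, Fdft1, Sqle and Cyp51, of 13840 genes with such a probe in the series, and Mvk, Fdps and Lss were not analysed here. The set holds synthesis enzymes only, so genes of cholesterol uptake were taken from a separate list. All 5 measured members were among the 8445 genes kept by a filter that retained the brighter 50% of probes.

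The Mtg16-null group comprised 2 arrays of RNA from females aged 8 to 12 weeks of an N4 backcross into C57BL/6, and the wild-type group comprised 2 arrays from C57BL/6 females of that age. Each RNA sample was a pool from 4 mice, and the lineage-negative fraction is the marrow left after magnetic depletion of cells with markers of mature lineages, a fraction rich in progenitors of several lineages. Each of 2 array lots held 1 array of each genotype. Only the null mice were of the N4 backcross, so strain background and the loss of Mtg16 cannot be told apart. Nothing in the labels says that the arrays of a genotype came from separate pools, so the p-values rest on the spread of these 4 arrays alone, part or all of which may be technical. In a mixed fraction, fewer cells of a type and less RNA per cell cannot be told apart.

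Cholesterol is built from acetyl-CoA by way of mevalonate, isoprenoid diphosphates, squalene and lanosterol. The genes of the route are known to be switched on together by sterol regulatory element-binding proteins (SREBPs) when sterols in the endoplasmic reticulum run low. Dividing cells draw on synthesis and on uptake of lipoprotein cholesterol for new membrane, and the pathway also supplies the isoprenoid groups that anchor small GTPases.

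The members' shared regulator acts through promoters, so the 250 bases upstream of the annotated start are shown for the 3 of the 5 measured members with an entry in the RefSeq promoter table of GRCm38.p6. They are read along the gene, 5′ to 3′, and capitals mark TCACNCCAC, the core of SREBP sites, and CCAAT, the NF-Y box, each searched on both strands (CCAAT on the opposite strand reads ATTGG). The windows are chr13:119690101-119690350 on the plus strand for Hmgcs1, chr13:8885356-8885605 on the plus strand for Idi1 and chr5:4104698-4104947 on the minus strand for Cyp51.
Hmgcs1: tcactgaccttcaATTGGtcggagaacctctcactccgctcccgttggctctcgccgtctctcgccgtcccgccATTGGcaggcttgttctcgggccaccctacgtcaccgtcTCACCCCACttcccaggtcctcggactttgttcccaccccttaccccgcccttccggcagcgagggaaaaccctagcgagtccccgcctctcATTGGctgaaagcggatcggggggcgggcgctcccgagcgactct
Idi1: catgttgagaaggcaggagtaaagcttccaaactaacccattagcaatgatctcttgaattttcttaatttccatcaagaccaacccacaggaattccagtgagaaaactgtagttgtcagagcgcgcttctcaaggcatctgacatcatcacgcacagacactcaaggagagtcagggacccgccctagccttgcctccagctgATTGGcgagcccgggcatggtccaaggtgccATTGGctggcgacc
Cyp51: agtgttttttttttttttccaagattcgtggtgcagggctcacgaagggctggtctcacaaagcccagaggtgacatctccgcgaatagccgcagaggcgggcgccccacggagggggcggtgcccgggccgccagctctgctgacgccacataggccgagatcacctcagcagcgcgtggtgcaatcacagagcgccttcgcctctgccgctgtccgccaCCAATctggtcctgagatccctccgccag
The Hmgcs1 window held 1 match to TCACNCCAC, at bases -137 to -129 from the start, with 3 NF-Y boxes. The Idi1 window held 2 NF-Y boxes and the Cyp51 window 1, and both had 0 matches to TCACNCCAC. Of 32851 promoter windows of that length in the table, 1.05% held TCACNCCAC and 33.8% held CCAAT. A match is a description of the letters and not evidence of binding.

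The measured enzymes differed between genotypes in sign and size. Hmgcs1 had the largest difference, 1.49-fold higher in the null arrays, Cyp51 was 1.25-fold higher, and Idi1, Fdft1 and Sqle differed by less. None of the 5 passed limma's test at an adjusted p under 0.05 (0 of 5, against 0.118% of the 8445 kept genes). At an unadjusted p under 0.05 there was 1 of 5, Hmgcs1, against 16.5% of kept genes. With the lot as a block 0 of 5 passed, in a fit where 0 of the 8445 kept genes did.

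**Figure D1:**
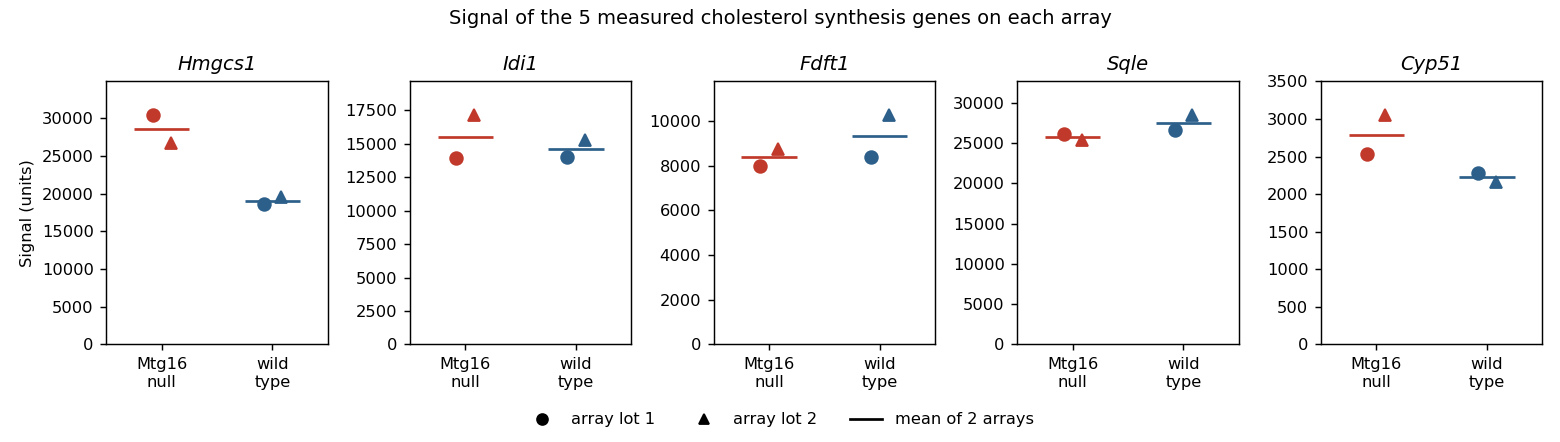
Signal in array units (vertical axis, from 0, a separate scale per gene) of the 5 measured enzymes on each array, with null arrays left and wild-type arrays right, circles for lot 1, triangles for lot 2 and bars for the mean of 2 arrays. Both null arrays lie above both wild-type arrays for Hmgcs1 and Cyp51 and below them for Sqle, and the genotypes overlap for Idi1 and Fdft1.

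Hmgcs1 encodes the cytosolic synthase that makes HMG-CoA, the precursor of mevalonate. Its probe read 30411 and 26686 signal units in the null arrays of lots 1 and 2, against 18605 and 19593 units in the wild-type arrays. Both null arrays were higher than both wild-type arrays, and the gap between genotypes was wider than the gap between arrays of a genotype. The means were 28548 ± 2634 units in null and 19099 ± 698 in wild type (SD, n = 2 each). The log2 difference, null minus wild type, was 0.58 (SE 0.18, 95% interval 0.09 to 1.07, limma adjusted p = 0.255, unadjusted p = 0.0310). It was 0.71 within lot 1 and 0.45 within lot 2, and a fit blocked on lot gave an adjusted p of 0.164.

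Idi1 encodes the isomerase that turns isopentenyl diphosphate into dimethylallyl diphosphate, the starter of isoprenoid chains. Its brighter probe read 13952 and 17121 units in null and 14012 and 15281 units in wild type. The genotypes overlapped, and the lot 1 arrays were nearly equal. The log2 difference was 0.08 (95% interval -0.47 to 0.63, limma adjusted p = 0.907), with -0.01 in lot 1 and 0.16 in lot 2, and ran from -0.069 to 0.23 with an array left out. A second Idi1 probe read 8997 and 9305 units in null, against 8876 and 7366 in wild type, a log2 difference of 0.18 with 0.02 in lot 1 and 0.34 in lot 2.

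Fdft1 encodes squalene synthase, which joins farnesyl diphosphate molecules in the step that commits carbon to sterols. It read 7991 and 8753 units in null and 8407 and 10257 units in wild type. The genotypes overlapped, though the null array was the lower within each lot. The log2 difference was -0.15 (95% interval -0.70 to 0.39, limma adjusted p = 0.796), with -0.07 in lot 1 and -0.23 in lot 2. Leaving out wild-type array 1 gave -0.29, wild-type array 2 gave -0.0075 and null array 1 gave -0.085.

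Sqle encodes squalene epoxidase, which oxidises squalene ahead of ring closure. It read 26093 and 25335 units in null and 26638 and 28430 units in wild type. Both null arrays were lower than both wild-type arrays, by a small margin. The log2 difference was -0.10 (95% interval -0.56 to 0.36, limma adjusted p = 0.854), with -0.03 in lot 1 and -0.17 in lot 2, and -0.051 without wild-type array 2.

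Cyp51 encodes the cytochrome P450 that demethylates lanosterol, the earliest sterol of the route. It read 2533 and 3048 units in null, against 2278 and 2168 units in wild type. Both null arrays were higher, with the wider gap in lot 2. The log2 difference was 0.32 (95% interval -0.20 to 0.85, limma adjusted p = 0.509), with 0.15 in lot 1 and 0.49 in lot 2. Leaving out null array 1 gave 0.46 and leaving out null array 2 gave 0.19.

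Set against all genes, the members sat inside the bulk of the distribution. Their median log2 difference was 0.08, with -0.01 in lot 1 and 0.16 in lot 2, against -0.02 over the 8445 kept genes. Among kept genes, 23.8% had a larger absolute difference than Hmgcs1 and 44.5% a larger one than Cyp51. For Fdft1 that share was 69.3%, for Sqle 79.8% and for Idi1 83.4%. The groups did not overlap for 3 of the 5 members, 2 higher and 1 lower in null, against 45.8% of kept genes, 22.6% higher and 23.1% lower. With 4 arrays the intervals of Idi1, Fdft1, Sqle and Cyp51 include 0 and also allow differences of about the size seen for Hmgcs1 in at least 1 direction, so similarity between genotypes is not shown.

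**Figure D2:**
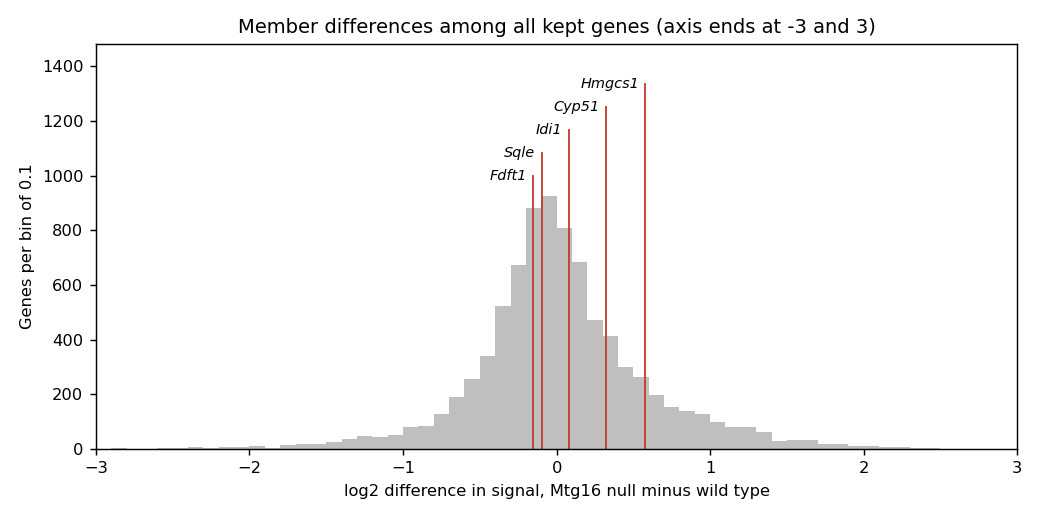
Number of kept genes (vertical axis) per bin of 0.1 in log2 difference, null minus wild type (horizontal axis, drawn from -3 to 3), with a red line at each measured enzyme. Fdft1, Sqle and Idi1 lie between -0.15 and 0.08 at the peak of the distribution, Cyp51 at 0.32 and Hmgcs1 at 0.58 on its upper side.

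The other enzymes of sterol synthesis also differed in sign. Of 13 listed, 9 had a probe and were kept, 6 with a positive and 3 with a negative difference, and their median was 0.13. The 2 named enzymes that follow the mevalonate kinase step lay on opposite sides. Mvd, the decarboxylase that yields isopentenyl diphosphate, read 2738 and 1977 units in null, against 1783 and 1266 in wild type (log2 difference 0.63, limma adjusted p = 0.406, 0.62 in lot 1 and 0.64 in lot 2). Pmvk, phosphomevalonate kinase, which acts just before it, read 17741 and 14233 units in null, against 24727 and 23821 in wild type (-0.61, limma adjusted p = 0.269, -0.48 and -0.74 in lots 1 and 2). The groups did not overlap for either gene. With the lot as a block the adjusted p was 0.132 for Mvd and 0.155 for Pmvk. Leaving out null array 1 gave 0.40 for Mvd, and leaving out wild-type array 2 gave 0.38.

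Among enzymes after lanosterol, Ebp, the sterol isomerase, had a log2 difference of 0.27 (limma adjusted p = 0.624) and Msmo1, the methylsterol oxidase, one of 0.30 (adjusted p = 0.733). Sc5d, the sterol desaturase, had -0.06 (adjusted p = 0.920). With 1 wild-type array left out, Ebp ran from 0.10 to 0.43, Msmo1 from -0.033 to 0.63 and Sc5d from -0.15 to 0.026. Dhcr7, a late reductase of the route and named here after its values were seen, read 1376 and 1193 units in null, against 334 and 1085 in wild type. Its difference was 2.04 in lot 1 and 0.14 in lot 2, so wild-type array 1 alone set its size.

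**Figure D3:**
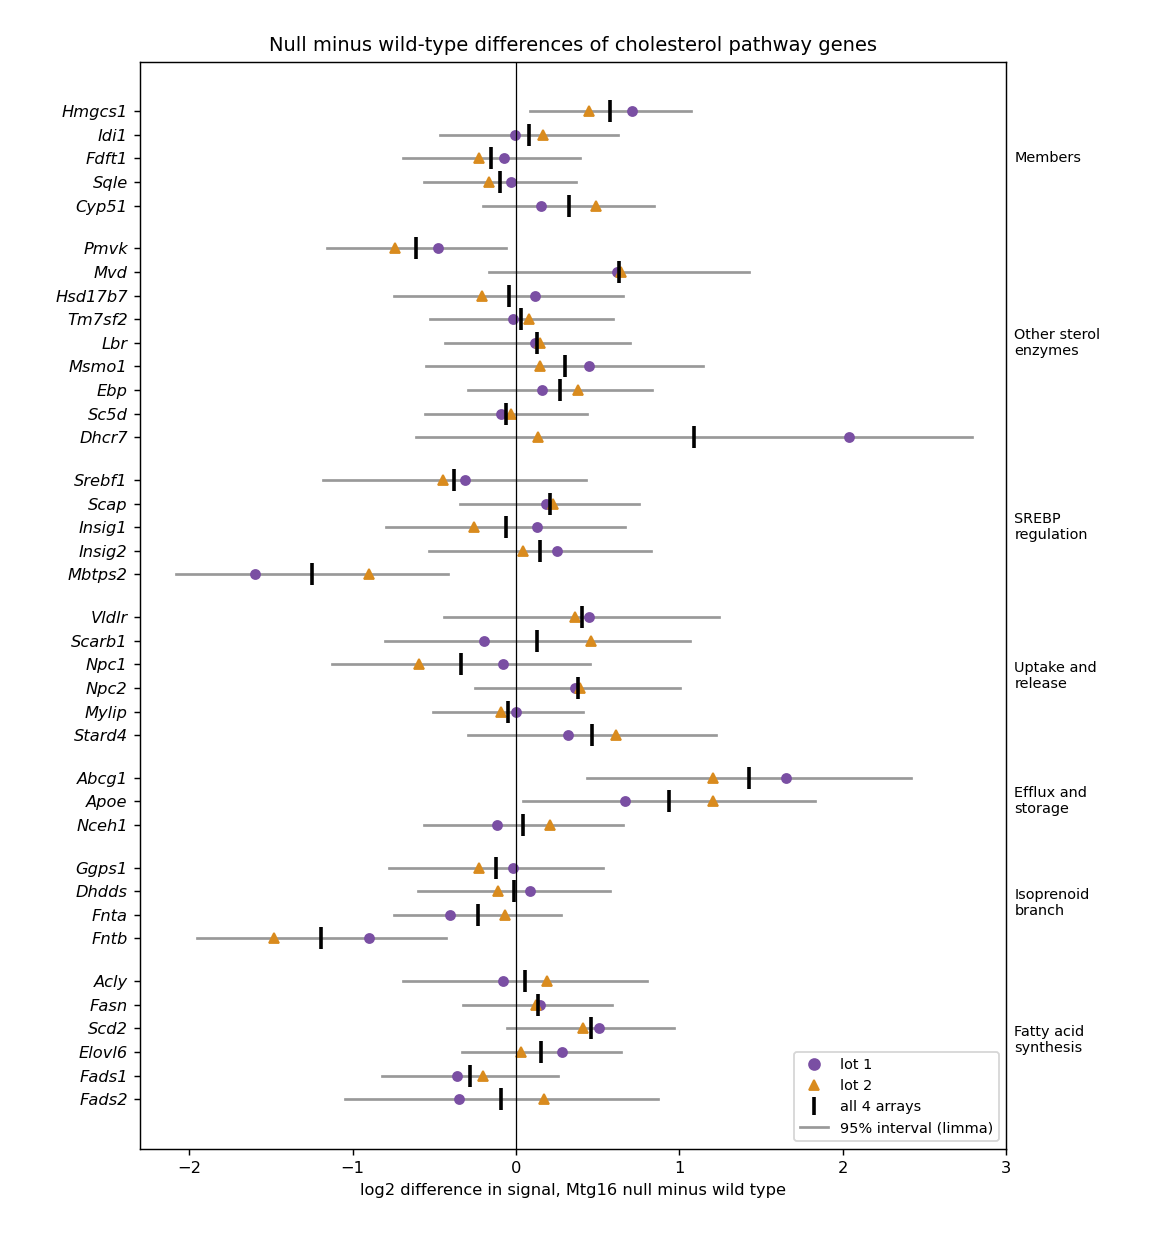
Log2 difference in signal, null minus wild type (horizontal axis), of the 5 measured enzymes and the 33 kept genes of 6 pathway lists, with circles for lot 1, triangles for lot 2, black ticks for all 4 arrays and grey lines for limma's 95% interval. Hmgcs1, Abcg1 and Apoe have intervals above 0, Pmvk, Mbtps2 and Fntb have intervals below 0, and 0 of the 33 list genes passed limma's adjusted threshold of 0.05.

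Over the 6 pathway lists, 39 of 54 genes had a probe and 33 were kept. By limma 0 of the 33 passed at an adjusted p under 0.05 (smallest 0.166), and 5 had an unadjusted p under 0.05, 2 higher and 3 lower in null, against 9.65% and 6.83% of kept genes. With the lot as a block 0 passed as well (smallest 0.113), in a fit where 0 of the 8445 kept genes passed. That value was also the smallest over all kept genes. In the block fit 8 of the 33 had an unadjusted p under 0.05, against 2055 of the 8445 kept genes.

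Genes of SREBP regulation had a median log2 difference of -0.06 over 5 kept of 7 listed, with 0.13 in lot 1 and -0.26 in lot 2. Each of these medians was the value of Insig1, named here after its values were seen, whose groups overlapped. Scap, the escort protein that carries SREBPs to the Golgi, had a difference of 0.20 (limma adjusted p = 0.720). Srebf1, which encodes an SREBP, read 44668 and 59690 units in null, against 55380 and 81262 in wild type, a difference of -0.38 (adjusted p = 0.632) with overlapping groups. Insig2, a sterol-dependent anchor that retains SREBPs in the endoplasmic reticulum, had 0.15 (adjusted p = 0.853). Within lots 1 and 2 the differences were -0.31 and -0.45 for Srebf1, 0.18 and 0.23 for Scap and 0.25 and 0.04 for Insig2. Fits without wild-type array 1 or 2, in which a lot lacks its pair, varied more. They gave -0.65 or -0.10 for Srebf1, 0.33 or 0.078 for Scap and -0.087 or 0.38 for Insig2. Mbtps2, the protease that makes the second cut of SREBPs in the Golgi, read 213 and 353 units in null, against 646 and 660 in wild type, a difference of -1.25 (adjusted p = 0.180). In these female mice the probes of 3 Y-linked genes read 94.5 to 310 units, so the lower Mbtps2 signal of the null arrays lies in or next to that range and the size of its difference is not resolved from background.

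Uptake and release genes, 6 kept of 11 listed, had a median of 0.25. Stard4, a carrier of cholesterol between membranes, read 9155 and 7552 units in null, against 7351 and 4947 in wild type, a log2 difference of 0.46 (limma adjusted p = 0.511). Both null arrays were higher than both wild-type arrays, and a second Stard4 probe gave 0.63. Leaving out wild-type array 1 gave 0.75 for the brighter probe, and leaving out wild-type array 2 gave 0.18. Npc2, the lysosomal protein that binds cholesterol released from lipoproteins, had a difference of 0.38 (adjusted p = 0.520), and Vldlr, a lipoprotein receptor, had 0.40 (adjusted p = 0.625). Npc1, the lysosomal membrane partner of Npc2, had -0.34 (adjusted p = 0.673), and Mylip, a ubiquitin ligase of lipoprotein receptors, had -0.05 (adjusted p = 0.931). Within lots 1 and 2 the differences were 0.44 and 0.36 for Vldlr, 0.36 and 0.39 for Npc2 and -0.08 and -0.60 for Npc1. Fits with an array left out, in which a lot lacks its pair, varied more for Vldlr and Npc2. Leaving out null array 1 gave -0.67 for Npc1 and 0.12 for Vldlr. Leaving out null array 2 gave -0.0067 for Npc1, 0.68 for Vldlr and 0.21 for Npc2. Leaving out wild-type array 1 gave 0.22 for Npc2, and Mylip ran from -0.086 to -0.012 with an array left out.

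Among the 33 kept genes of these lists the largest positive difference was that of an efflux gene, and it did not pass the test. Abcg1, a transporter that exports cholesterol to lipoproteins, read 6578 and 8612 units in null, against 2096 and 3736 in wild type. Both null arrays were higher, and the difference was 1.43 on the log2 scale (SE 0.36, 95% interval 0.44 to 2.42, limma adjusted p = 0.192), with 1.65 in lot 1 and 1.20 in lot 2. Apoe, a lipoprotein component secreted by macrophages among other cells, read 112288 and 95354 units in null, against 70653 and 41420 in wild type (0.94, adjusted p = 0.287, and 0.55 without wild-type array 2). The list kept 3 of 7 genes, and its median of 0.94 was the value of Apoe. The remaining kept gene, Nceh1, named here after its values were seen, had 0.04 with overlapping groups. Its difference was -0.12 in lot 1 and 0.21 in lot 2. Of 5 kept monocyte and macrophage markers, Ccr2, F13a1, Irf8 and Ly86 were higher and Cd163 was lower without overlap, against 22.6% and 23.1% of kept genes. The summed signal of that list was 91927 to 97280 units in null and 46952 to 52353 in wild type. Early granulocyte, megakaryocyte, early lymphoid and stem cell markers were mostly higher too, and late neutrophil and erythroid markers were lower, as given below. The part of any of these cell types in the efflux values was not tested.

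In the isoprenoid branch, all 4 kept of 7 listed genes had negative differences, against 4396 of the 8445 kept genes, with a median of -0.18. Dhdds, named here after its values were seen, was near 0 at -0.01, with 0.08 in lot 1 and -0.11 in lot 2. Fntb, the beta subunit of protein farnesyltransferase, read 1324 and 1374 units in null, against 2470 and 3840 in wild type. Both null arrays were lower (log2 difference -1.19, SE 0.28, limma adjusted p = 0.166), and a second Fntb probe gave -1.02. Fnta, the alpha subunit of that enzyme, had -0.23 (adjusted p = 0.643), and Ggps1, which makes geranylgeranyl diphosphate, had -0.12 (adjusted p = 0.873). Leaving out null array 1 gave -0.13 for Fnta and -0.34 for Ggps1, and leaving out null array 2 gave 0.096 for Ggps1.

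Fatty acid synthesis genes, which SREBPs also activate, had a median of 0.09 over 6 kept of 9 listed. Scd2, a stearoyl-CoA desaturase, read 84361 and 72612 units in null, against 59416 and 54728 in wild type, a log2 difference of 0.46 (limma adjusted p = 0.352) with no overlap. Fasn, fatty acid synthase, had 0.13 (adjusted p = 0.784) and Elovl6, a fatty acid elongase, had 0.15 (adjusted p = 0.763). Fads1, a fatty acid desaturase, had -0.28 (adjusted p = 0.584), and -0.14 without wild-type array 1. Elovl6 ran from 0.067 to 0.24 with an array left out.

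Markers of several cell types differed between the genotypes on the same arrays. Markers are counted here as higher or lower only where the genotypes did not overlap, against 22.6% of kept genes higher and 23.1% lower, and the sums given for each list cover all its markers with a probe. All 11 late neutrophil markers were lower in both null arrays, with summed signals of 148105 to 158427 units in null and 1369465 to 1485619 in wild type, and 7 of them passed limma's test, of the 10 genes (0.118% of 8445) that passed in all. With the fit blocked on lot, 0 genes passed. All 10 kept erythroid markers were lower, at 1085338 to 1246335 units in null and 1758644 to 2578228 in wild type. Early granulocyte markers were higher without overlap for 6 of 7, at 3460852 to 4112756 units in null and 1602690 to 1689228 in wild type. Megakaryocyte markers were higher without overlap for 5 of 6 and lower for 1, at 798745 to 915354 units in null and 476405 to 478314 in wild type. Early lymphoid and B markers were higher without overlap for 5 of 6, at 70357 to 72009 units in null and 28971 to 34536 in wild type. Stem and multipotent markers were higher without overlap for 5 of 8, at 115605 to 120239 units in null and 85845 to 88010 in wild type. Stroma and endothelium markers were higher without overlap for 3 of 5 and lower for 1, at 22766 to 25269 units in null and 16723 to 19301 in wild type. Of the 5 kept cycling cell markers 1 was lower without overlap, a share near that of all kept genes, and the list's sum was 709909 to 754801 units in null and 878796 to 916626 in wild type. No listed marker read 0, and the part of these shifts in the cholesterol gene values was not tested. The probe of the targeted gene, Cbfa2t3, had a log2 difference of 0.24 (limma adjusted p = 0.702), and its place relative to the deleted part is not known from the files, so it checks no label.

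The kept genes whose pattern over the 4 arrays was most like the members' median pattern were Azin1, Nup153, Osbpl2, Otx1 and Hip1r. Likeness was the root mean square difference in gene-centred log2 signal, which ran from 0.02 for Azin1 to 0.03 for Hip1r over 4 arrays. Their null minus wild-type differences were 0.11 to 0.16 on the log2 scale, and the members' median pattern was itself close to flat, between -0.10 and 0.19.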

How the data were processed

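RNA was converted to digoxigenin-labelled cRNA and measured on one-colour ABI arrays, per the labels' protocols. The authors deposited a linear intensity for each of 33012 probes, and their sorted values differed between arrays by at most 0.286%, so they had been quantile normalized. Scanner software and background correction were not given in the sources used here. The number of arrays limits the precision.

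Of the probes, 14411 had 1 gene symbol in the platform annotation, 247 several and 18354 none. Signals under the 1st percentile, 75.8 units, were raised to it before log2, and the 16506 probes in the upper 50% of mean log2 signal were kept. Null minus wild type was fitted with limma 3.58.1 in R 4.3.3 (lmFit, eBayes) on 4 arrays, with Benjamini-Hochberg adjustment over 8445 genes and a threshold of 0.05. The fit had 2 residual and 2.11 prior degrees of freedom, and the script was tested on simulated data. The replicate number is the array lot per the series text, and lot deviations of the genotypes correlated over genes (r = 0.50), so the lot pairs the arrays. Named were all members, and per pathway list up to 3 genes per direction by the smaller of their within-lot differences where the lots had 1 sign. Members and lists were chosen with earlier results of these data known. Alternatives were the lot as a block, other filters and floors, cyclic loess, a variance trend, the mean of probes and each array left out. Figures used matplotlib 3.10.9 in Python 3.11.15.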

Additional observations from a re-analysis of the deposited data

How the results depend on the processing

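None of the measured members and no pathway list gene passed limma under any of the 12 alternatives (0 of the members in each), including the fit with the lot as a replicate block, where 1 member, Hmgcs1, had an unadjusted p under 0.05. The replicate block changed no member's call. The Hmgcs1 difference stayed positive in all 12, from 0.48 to 0.67 on the log2 scale, with adjusted p between 0.120 and 0.855. The members' median ran from -0.069 (null array 2 left out) to 0.23 (null array 1 left out), and was -0.01 with the brightest 25% of probes, which dropped Cyp51. Over all genes, 10 passed in the fit reported here, against 0 with the replicate block (2055 at an unadjusted p under 0.05), 0 when dim probes were kept (1514), 291 with the brightest 25%, 295 with a variance trend and 0 with any array left out (668 to 1429). Of 328 values of 28 named genes, 323 kept their sign and their side of the threshold. Much of that tally was fixed in advance. The lot block, filters, floors and variance trend left each log2 difference of a kept gene unchanged, that of Hmgcs1 included. Signs could turn only with cyclic loess, the mean of probes or an array left out. None of the 28 passed in the fit reported here. With an array left out, Idi1 ran from -0.069 to 0.23 and Ggps1 from -0.34 to 0.096, each turning sign without null array 2. Msmo1 ran from -0.033 to 0.63, Sc5d from -0.15 to 0.026 and Insig2 from -0.087 to 0.38, each turning sign without wild-type array 1. With 3 arrays the lone array of a genotype is assumed to vary like the other group. Signals near those of the Y-linked probes do not resolve folds.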
